A study of Mus musculus with 16 samples.

Results

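The p53 target genes were followed in whole mouse embryos with and without a gene trap in Cecr2, on a pair of inbred strains. The set held 36 genes: p53 itself, its feedback regulators, and genes that p53 is known to switch on. Members were taken as the probe sets whose gene symbol in the platform annotation was one of these 36 names. Of the 36 genes, 33 had such a probe set, among 18193 genes measured in all. They were covered by 65 of the 45037 probe sets, with 1 probe set for 14 genes and up to 4 for the other 19. Trp53, which encodes p53, and the targets Gdf15 and Fdxr were not analysed here.

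RNA was measured on 16 Affymetrix arrays, 1 female embryo of 11 to 14 somites per array, with the extraembryonic membranes removed. The 4 groups of 4 embryos were BALB/cCrl wild types, BALB/cCrl mutants, FVB/N wild types and FVB/N mutants. All mutants were homozygous for the gene trap allele Cecr2Gt45Bic, which had been backcrossed for more than 10 generations onto each strain, and no group received a treatment. BALB/cCrl embryos came from crosses of heterozygotes, whereas FVB/N mutants came from crosses of homozygotes. The genotype and the cross therefore cannot be told apart in FVB/N. Nor can the strain and the cross be told apart between mutants or in the interaction of trap and strain. Litter, the somite number of each embryo and whether a mutant would have developed exencephaly are unknown here. The p-values below measure the spread between single embryos.

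Cecr2 encodes a bromodomain protein of chromatin remodelling complexes, and its loss is known to leave the cranial neural tube open, more often on BALB/c than on FVB/N. p53 is a transcription factor that is stabilised by DNA damage and other stress. Mdm2, a ubiquitin ligase, marks p53 for destruction and is itself switched on by p53, which closes a feedback loop. Targets of p53 stop the cell cycle, start apoptosis or repair DNA. In mice, both loss of p53 and excess p53 activity are known to disturb closure of the cranial neural tube. The levels of p53 targets in such embryos before closure are therefore of interest, although p53 is regulated mainly at the protein level, which was not measured.

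The binding motif of p53 is built from pairs of a decamer, and the stretch around the transcription start shows which members carry that decamer close to the gene. The p53 decamer consensus was searched for on both strands of the RefSeq promoter windows (build GRCm38.p6), which run from 250 bases before to 50 bases after a start. The motif is its own reverse complement in consensus, so a match on one strand was counted once. Of the 33 measured members, 26 had a window, and 12 of these (46.2%) held at least 1 decamer, compared with 9.55% of 27025 genes in the genome annotation. By window, 13 of 36 member windows (36.1%) and 8.36% of all 32851 windows held one. The 12 genes were Aen, Ccng1, Cdkn1a, Ckap2, Ei24, Gadd45a, Gtse1, Mdm2, Polk, Ppm1d, Rps27l and Sesn1. The members were chosen as known targets, so this share describes the set. Shown here are the windows of the 3 genes on which readings of p53 activity usually rest (Cdkn1a, Mdm2 and Ccng1) and of Aen and Btg2, which differed between strains below. Each is written 5′ to 3′ on the strand of its gene, with decamer matches in capitals.
Cdkn1a, chr17:29090729-29091028, plus strand: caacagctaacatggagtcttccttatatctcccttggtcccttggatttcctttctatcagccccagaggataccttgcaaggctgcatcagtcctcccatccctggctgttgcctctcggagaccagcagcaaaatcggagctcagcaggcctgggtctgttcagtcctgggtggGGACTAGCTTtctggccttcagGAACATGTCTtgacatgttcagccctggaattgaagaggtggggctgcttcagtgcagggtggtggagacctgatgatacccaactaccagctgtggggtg
Mdm2, chr10:117710709-117711008, minus strand: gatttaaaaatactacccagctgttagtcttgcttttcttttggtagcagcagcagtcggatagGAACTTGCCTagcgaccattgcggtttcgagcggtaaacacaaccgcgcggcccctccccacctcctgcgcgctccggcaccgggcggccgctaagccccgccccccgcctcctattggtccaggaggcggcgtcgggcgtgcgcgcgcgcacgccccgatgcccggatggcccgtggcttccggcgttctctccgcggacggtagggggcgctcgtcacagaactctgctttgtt
Ccng1, chr11:40755237-40755536, minus strand: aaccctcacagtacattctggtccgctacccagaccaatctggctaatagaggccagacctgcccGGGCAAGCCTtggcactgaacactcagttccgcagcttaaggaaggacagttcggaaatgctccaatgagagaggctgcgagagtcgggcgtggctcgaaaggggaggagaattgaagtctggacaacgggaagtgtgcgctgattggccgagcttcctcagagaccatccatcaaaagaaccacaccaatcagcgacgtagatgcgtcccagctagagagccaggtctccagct
Aen, chr7:78895677-78895976, plus strand: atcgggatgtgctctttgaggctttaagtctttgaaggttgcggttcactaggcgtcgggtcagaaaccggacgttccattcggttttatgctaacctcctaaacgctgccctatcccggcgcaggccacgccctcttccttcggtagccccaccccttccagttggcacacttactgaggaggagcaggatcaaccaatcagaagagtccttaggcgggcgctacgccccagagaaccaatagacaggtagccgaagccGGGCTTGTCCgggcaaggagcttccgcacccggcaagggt
Btg2, chr1:134079106-134079405, minus strand: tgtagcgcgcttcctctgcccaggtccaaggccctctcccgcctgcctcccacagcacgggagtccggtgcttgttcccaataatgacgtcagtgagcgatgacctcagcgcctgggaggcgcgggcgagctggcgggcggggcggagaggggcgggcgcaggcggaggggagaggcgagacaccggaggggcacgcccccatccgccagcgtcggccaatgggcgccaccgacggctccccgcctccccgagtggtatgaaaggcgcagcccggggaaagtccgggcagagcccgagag
Where a gene had several windows, the window with the most matches is shown (at a tie, the lowest start coordinate). The Cdkn1a window shown held 2 decamers before its start, GGACTAGCTT and GAACATGTCT. The other Cdkn1a window, chr17:29093519-29093818, held 0. Mdm2 held GAACTTGCCT and Ccng1 held GGGCAAGCCT, both before the start. Aen held GGGCTTGTCC after the start of the window shown and before the start of its other window. The Btg2 window held 0 matches, which says only that these letters were not in this window. A match is a description of the sequence and was not tested for binding.

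Values are log2 expression values, so a difference of 1 is a doubling. A gene with several probe sets was represented by the one with the highest mean over the 16 arrays. Each contrast was tested with limma across all 45037 probe sets, and a probe set was called at a Benjamini-Hochberg adjusted p under 0.05. All 33 representing probe sets lay above 4.23, the highest mean of the 9 probe sets of Y-linked genes, which female embryos lack. Spread among embryos of a group was ordinary: the pooled SD of the members had a median of 0.12, from 0.055 for Ercc5 to 0.279 for Pmaip1, against a median of 0.116 over all genes.

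The trap itself was visible in every mutant. The Cecr2 probe set 1457039_at lay between 8.07 and 8.64 in BALB/cCrl wild types and between 5.90 and 6.04 in BALB/cCrl mutants, 5.15-fold lower (limma adjusted p = 1.9e-10). In FVB/N it lay between 8.14 and 8.51 in wild types and between 6.15 and 6.37 in mutants, 4.01-fold lower (limma adjusted p = 2e-09). Another Cecr2 probe set, 1431014_at, was 5.23-fold lower in BALB/cCrl mutants (limma adjusted p = 6.8e-05) and 7.77-fold lower in FVB/N mutants (limma adjusted p = 1.2e-06). Which strain had the larger fall thus depended on the probe set. Arrays of a group correlated at 0.9946 to 0.9979, and the second principal component had its extremes in mutants 3 and 4 of FVB/N, at -24.0 and -24.7. The 4 neural markers summed to 12.52 to 12.62 (log2 of summed linear values) in wild types of BALB/cCrl and to 12.32 to 12.51 in mutants of that strain, which did not overlap, although 0 of the 4 were called. In FVB/N they summed to 12.48 to 12.60 in wild types and to 12.02 to 12.63 in mutants. Of 10 visceral endoderm and yolk sac markers, 9 were measured, and 0 were called in either trap contrast. Their sum ranged from 14.14 to 15.02 in BALB/cCrl wild types, from 13.68 to 15.42 in BALB/cCrl mutants, from 14.36 to 15.17 in FVB/N wild types and from 12.78 to 15.07 in FVB/N mutants. Of 8 decidua and trophoblast markers, 6 were measured and Gzmd, Gzme, Gzmg and Tpbpa were below the bound set by the Y-linked genes. Their sum ranged from 10.58 to 11.16 in BALB/cCrl wild types, from 10.07 to 11.02 in BALB/cCrl mutants, from 10.13 to 11.00 in FVB/N wild types and from 10.49 to 10.69 in FVB/N mutants. The part of tissue makeup in the results below was not tested, and in whole embryos fewer cells of a type and less RNA per cell cannot be told apart.

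No p53 target was called between mutants and wild types in either strain. In BALB/cCrl, limma called 0 of the 65 member probe sets, with 0.02% of all probe sets called, and 9 had an unadjusted p under 0.05, which 9.54% of all probe sets had. In FVB/N it again called 0 of 65, with 0.595% of all probe sets called, and 8 had an unadjusted p under 0.05, against 12.1% of all. By representing probe set limma called 0 of 33 members in either strain, with 0.044% of all genes called in BALB/cCrl and 0.511% in FVB/N. The differences were small on both sides of 0. Across the 33 representing probe sets they ran from -0.27 to 0.30 in BALB/cCrl and from -0.35 to 0.23 in FVB/N. The 95% intervals of all 33 lay within 1 log2 unit of 0 in both strains, and those of 31 in each strain lay within 0.5. Their widest reach was down to -0.56 for Pmaip1 and up to 0.46 for Mdm4 in BALB/cCrl, and down to -0.64 for Eda2r and up to 0.41 for Bid in FVB/N.

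The signs were tilted to lower values in mutants. In BALB/cCrl 26 of 33 members lay below 0 with a median of -0.04, while 52.8% of all genes lay below 0 with a median of -0.01. In FVB/N 20 of 33 lay below 0 with a median of -0.04, against 49.3% and 0.00 for all genes. The FVB/N median was -0.017 without mutant 3, -0.018 without wild type 1, -0.026 without mutant 4 and -0.017 after quantile normalization. Without FVB/N mutants 3 and 4 together, an alternative chosen after the data were seen, it was -0.005. Marker lists of other tissues were also tilted in FVB/N mutants, with 0 markers called: 0 of 9 visceral endoderm markers lay above 0 (median -0.42), 0 of 3 paraxial mesoderm markers (-0.34), 0 of 5 primitive erythroid markers (-0.09) and 0 of 4 neural markers (-0.16), while 3 of 3 heart markers did (0.14). In BALB/cCrl mutants the lists were not of one sign. There 1 of 9 visceral endoderm markers lay above 0 (median -0.13), 0 of 4 neural markers (-0.17) and 0 of 3 heart markers (-0.12). By contrast, 4 of 5 primitive erythroid markers (0.03) and 2 of 3 paraxial mesoderm markers (0.11) lay above 0. Their part in the tilt of the members was not tested. Groups did not overlap for 4 of the 65 probe sets in BALB/cCrl, 1 higher and 3 lower in mutants, where 5.12% of all probe sets did not. In FVB/N they did not overlap for 6, 2 higher and 4 lower, where 6.83% of all did not.

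**Figure D1:**
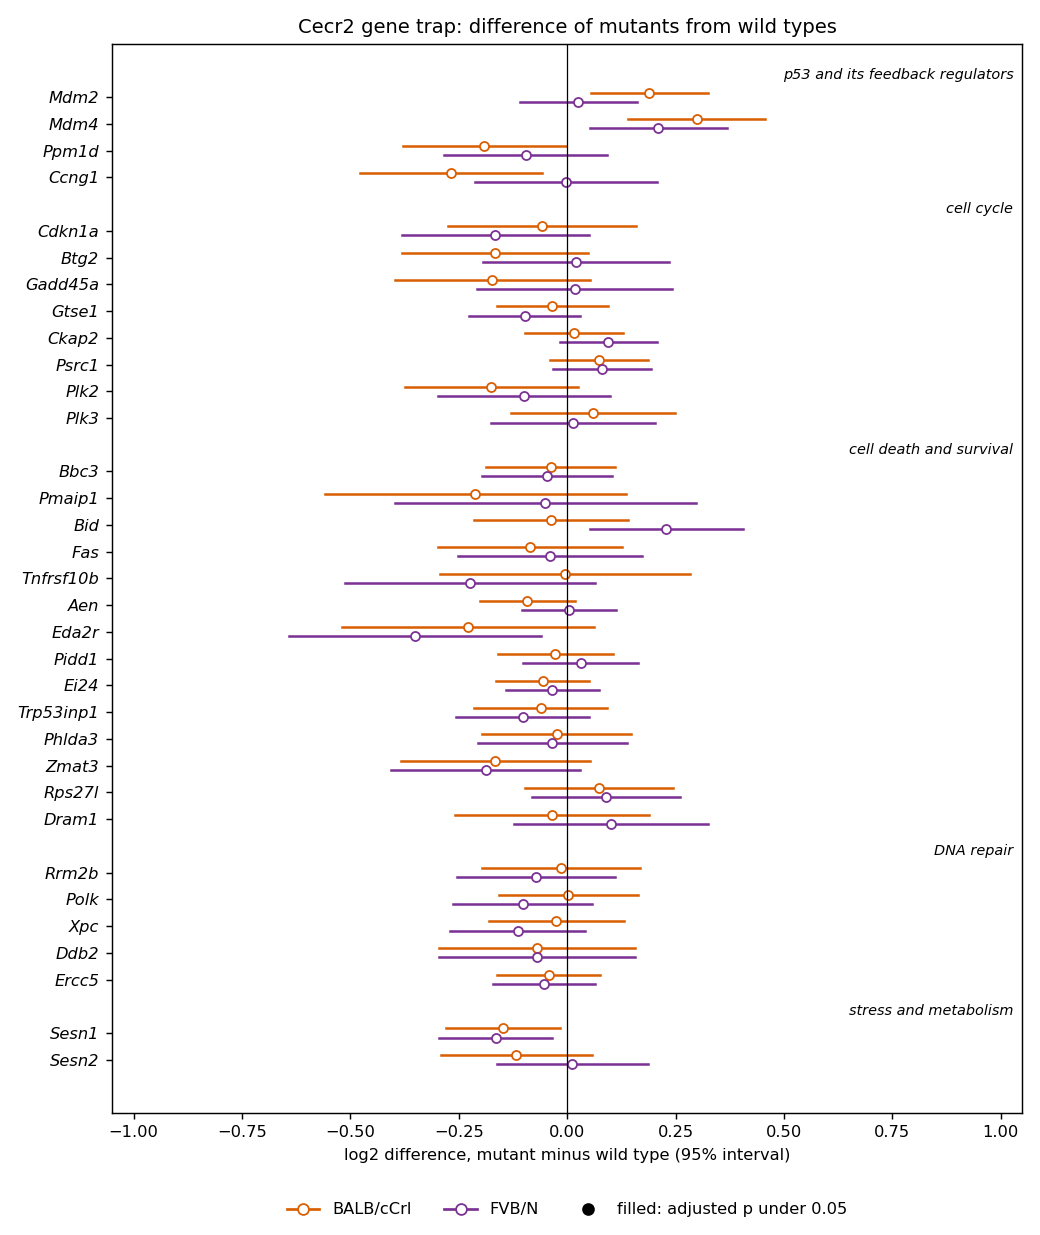
Difference between mutants and wild types of the same strain (x axis, log2 units, with 95% intervals) for the 33 measured p53 target genes by role (y axis), in BALB/cCrl (orange) and FVB/N (purple). Open points are not called, and all points are open: the differences lie between -0.35 and 0.30 in both strains.

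Among the feedback regulators, Mdm2 was measured by the probe set 1423605_a_at (gene at chr10:117688875-117710758). It read 9.73, 9.84, 9.76 and 9.70 in BALB/cCrl wild types and 10.13, 9.82, 9.91 and 9.92 in BALB/cCrl mutants. It read 9.63, 9.67, 9.70 and 9.70 in FVB/N wild types and 9.67, 9.76, 9.57 and 9.80 in FVB/N mutants. Mutants and wild types overlapped in both strains, the highest of all 16 embryos being BALB/cCrl mutant 1. The difference was 0.19 ± 0.06 (SE) in BALB/cCrl (limma adjusted p = 0.39, n = 4 per group) and 0.03 ± 0.06 in FVB/N (limma adjusted p = 0.91). A second probe set, 1427718_a_at, had means of 9.03 in BALB/cCrl wild types and 8.96 in BALB/cCrl mutants, so the Mdm2 probe sets differed in sign.

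Mdm4, a relative of Mdm2 that restrains the activity of p53, had the largest positive difference among the representing probe sets in BALB/cCrl, but was not called. The probe set 1460542_s_at read 8.94, 9.22, 9.07 and 9.14 in BALB/cCrl wild types and 9.53, 9.39, 9.38 and 9.25 in BALB/cCrl mutants, and these groups did not overlap. It read 9.07, 9.28, 9.21 and 9.06 in FVB/N wild types and 9.36, 9.47, 9.25 and 9.39 in FVB/N mutants, which overlapped by the lowest mutant. The difference was 0.30 ± 0.08 in BALB/cCrl (limma adjusted p = 0.27) and 0.21 ± 0.08 in FVB/N (limma adjusted p = 0.24). The 3 dimmer probe sets of Mdm4 were not of one sign in BALB/cCrl: the mean of 1458223_at was 6.76 in mutants and 6.66 in wild types, while 1419558_at had 6.51 against 6.60 and 1453982_at had 5.06 against 5.16.

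Ccng1 encodes cyclin G1, a target that acts back on Mdm2. Its probe set 1420827_a_at (gene at chr11:40748552-40755309) read 10.09, 9.82, 10.19 and 10.15 in BALB/cCrl wild types and 9.76, 9.70, 9.71 and 10.01 in BALB/cCrl mutants. It read 10.03, 10.32, 9.91 and 9.97 in FVB/N wild types and 9.95, 10.29, 9.94 and 10.03 in FVB/N mutants. The BALB/cCrl groups overlapped through mutant 4 and wild type 2 alone, and in FVB/N the groups covered nearly the same range. The difference was -0.27 ± 0.10 in BALB/cCrl (limma adjusted p = 0.43) and 0.00 ± 0.10 in FVB/N (limma adjusted p = 0.99). Ppm1d, a phosphatase that switches off the damage response, had a difference of -0.19 ± 0.09 in BALB/cCrl (limma adjusted p = 0.51).

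Cdkn1a encodes p21, the cyclin-dependent kinase inhibitor through which p53 arrests the cell cycle (gene at chr17:29090979-29100722). Its representing probe set, 1424638_at, read 8.16, 8.17, 8.34 and 8.01 in BALB/cCrl wild types and 8.34, 7.82, 8.04 and 8.24 in BALB/cCrl mutants. It read 8.05, 8.16, 8.01 and 8.01 in FVB/N wild types and 7.82, 7.69, 7.99 and 8.05 in FVB/N mutants. The groups overlapped in both strains, with a difference of -0.06 ± 0.10 in BALB/cCrl (limma adjusted p = 0.90) and -0.17 ± 0.10 in FVB/N (limma adjusted p = 0.55).

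The other Cdkn1a probe set, 1421679_a_at, separated mutants from wild types in both strains without being called. It read 7.77, 7.46, 7.89 and 7.64 in BALB/cCrl wild types and 7.29, 7.34, 7.19 and 7.30 in BALB/cCrl mutants. It read 7.36, 7.38, 7.16 and 7.31 in FVB/N wild types and 6.96, 6.96, 7.14 and 7.10 in FVB/N mutants. In both strains the highest mutant was below the lowest wild type, with a difference of -0.41 ± 0.09 in BALB/cCrl (limma adjusted p = 0.15) and -0.26 ± 0.09 in FVB/N (limma adjusted p = 0.21). The 2 Cdkn1a probe sets thus gave differences of unequal size for one gene, and which transcripts each reads was not examined. The 8 cell cycle genes together had 5 members below 0 in BALB/cCrl and 3 below 0 in FVB/N, with 0 called in either.

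**Figure D2:**
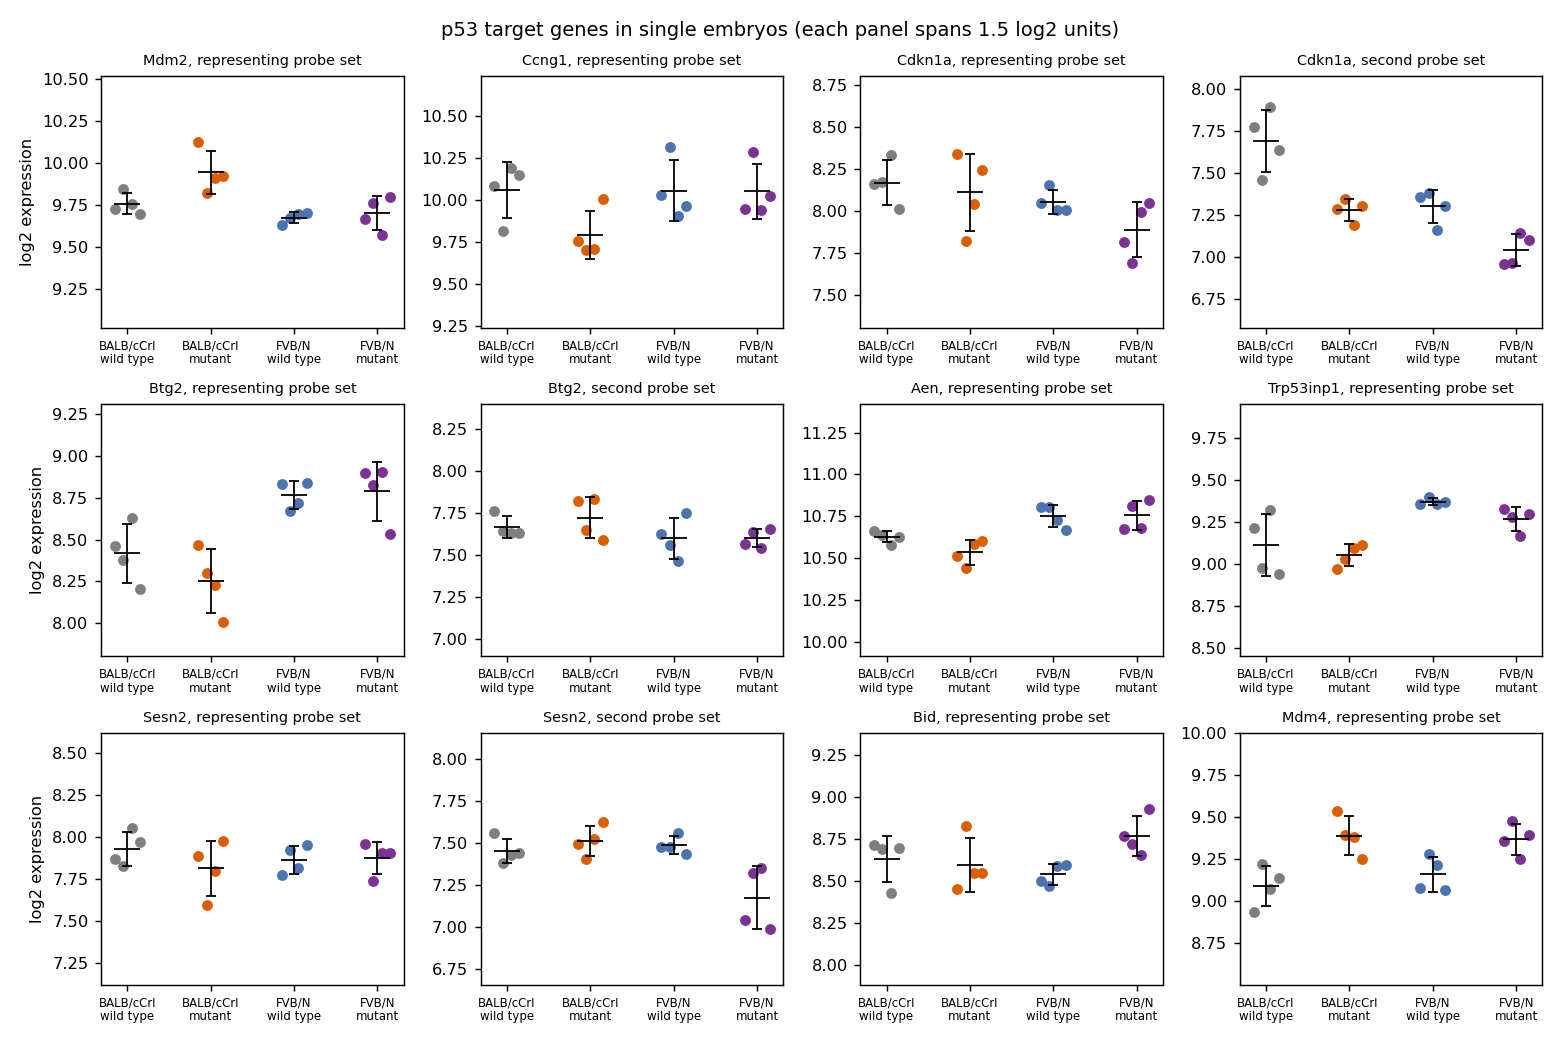
Log2 expression (y axis, each panel spanning 1.5 units) of 12 probe sets of p53 target genes in the 4 groups (x axis), 1 point per embryo, with black bars for the mean and SD of 4 embryos. The second Cdkn1a probe set separates mutants from wild types in both strains, while its representing probe set does not, and the Btg2 representing probe set separates the strains within each genotype.

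Among the 14 genes of cell death and survival, 13 lay below 0 in BALB/cCrl mutants, with a median of -0.05 and 0 called, and 9 lay below 0 in FVB/N mutants, with a median of -0.04 and 0 called. Bbc3 encodes Puma, a BH3-only protein that starts apoptosis. Its means were 7.78 ± 0.05 (SD, n = 4) in BALB/cCrl wild types, 7.75 ± 0.07 in BALB/cCrl mutants, 7.91 ± 0.08 in FVB/N wild types and 7.86 ± 0.12 in FVB/N mutants. Pmaip1 encodes Noxa, another BH3-only protein. It lay between 7.13 and 7.80 in 15 embryos and at 6.62 in FVB/N wild type 3, which set the highest SD of any member. Its difference in BALB/cCrl was -0.21 ± 0.17 (limma adjusted p = 0.72).

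Eda2r, a receptor for an ectodysplasin, had the largest difference of any representing member probe set in FVB/N. The X-linked probe set 1440085_at read 6.22, 6.08, 6.09 and 6.27 in BALB/cCrl wild types and 5.72, 5.63, 6.06 and 6.34 in BALB/cCrl mutants. It read 6.28, 6.88, 6.51 and 6.60 in FVB/N wild types and 6.08, 6.40, 6.11 and 6.27 in FVB/N mutants. Mutants overlapped wild types in both strains, with a difference of -0.23 ± 0.14 in BALB/cCrl (limma adjusted p = 0.63) and -0.35 ± 0.14 in FVB/N (limma adjusted p = 0.30). Tnfrsf10b, a death receptor for TRAIL, had a difference of -0.22 ± 0.14 in FVB/N (limma adjusted p = 0.54).

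Bid, a BH3-only protein that links death receptors to mitochondria, lies on chromosome 6 at 120893119 to 120917062, 121.9 kb from Cecr2. For a gene that close, the trap and the DNA inherited with it cannot be told apart. Its probe set 1417045_at read 8.71, 8.69, 8.43 and 8.70 in BALB/cCrl wild types and 8.46, 8.83, 8.55 and 8.55 in BALB/cCrl mutants. It read 8.50, 8.47, 8.59 and 8.60 in FVB/N wild types and 8.77, 8.72, 8.66 and 8.93 in FVB/N mutants. All FVB/N mutants lay above all FVB/N wild types, by 0.23 ± 0.08 (limma adjusted p = 0.26), while the BALB/cCrl groups overlapped, with a difference of -0.04 ± 0.08 (limma adjusted p = 0.93). A second probe set, 1448560_at, also separated the FVB/N groups, by 0.24 ± 0.08 (limma adjusted p = 0.23). The remaining, dimmer Bid probe set, 1447873_x_at, differed by 0.05 ± 0.10 in FVB/N (limma adjusted p = 0.88), and its groups overlapped.

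The 5 DNA repair genes (Rrm2b, Polk, Xpc, Ddb2 and Ercc5) had differences of -0.07 to 0.00 in BALB/cCrl and of -0.12 to -0.05 in FVB/N, with 0 called. Sesn1 and Sesn2 encode sestrins, which limit oxidative stress and restrain mTORC1 signalling. Sesn1 (1433711_s_at) read 9.03, 9.10, 8.98 and 9.03 in BALB/cCrl wild types and 8.89, 8.91, 8.82 and 8.94 in BALB/cCrl mutants. These groups did not overlap, with a difference of -0.15 ± 0.06 (limma adjusted p = 0.48). In FVB/N the Sesn1 difference was -0.16 ± 0.06 (limma adjusted p = 0.28). The other Sesn1 probe sets gave unequal differences. For 1438931_s_at it was -0.38 ± 0.11 in BALB/cCrl (limma adjusted p = 0.34) and -0.05 ± 0.11 in FVB/N (limma adjusted p = 0.90). For 1454699_at it was -0.06 ± 0.11 in each strain, and for the dimmest, 1444376_at, -0.02 in BALB/cCrl and 0.02 in FVB/N. The second Sesn2 probe set, 1425139_at, read 7.48, 7.47, 7.56 and 7.44 in FVB/N wild types and 7.04, 7.32, 7.35 and 6.98 in FVB/N mutants, which did not overlap. Its difference there was -0.32 ± 0.09 (limma adjusted p = 0.10), and the representing Sesn2 probe set, 1451599_at, had means of 7.86 in FVB/N wild types and 7.88 in FVB/N mutants.

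Whether mutants differed from wild types to an unequal degree in the strains was tested as an interaction, the BALB/cCrl difference minus the FVB/N difference. The crosses differed between the strains as well, so strain and cross cannot be told apart in it. limma called 0 of 65 member probe sets, with 0.0755% of all probe sets called (0.066% of genes by representing probe set), and 6 had an unadjusted p under 0.05, against 7.92% of all. Among representing probe sets the largest interactions were -0.27 ± 0.12 for Bid (limma adjusted p = 0.60), -0.26 ± 0.14 for Ccng1 (limma adjusted p = 0.68) and 0.22 ± 0.20 for Tnfrsf10b (limma adjusted p = 0.84). The smallest adjusted p of any member probe set was 0.36. The intervals were wider than for a single strain: all 33 lay within 1 log2 unit of 0, and 27 lay within 0.5.

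Between strains a few p53 targets were called, in shares no higher than those of all probe sets. Among wild types limma called 3 of 65 member probe sets, of which 1 was higher and 2 were lower in BALB/cCrl, while 6.74% of all probe sets were called (2.88% higher and 3.86% lower). Among mutants it called 4 of 65, 2 higher and 2 lower, while 10.8% of all were called (4.89% higher and 5.91% lower). An unadjusted p under 0.05 was reached by 11 member probe sets in wild types and by 19 in mutants, against 18.4% and 22.6% of all probe sets. Groups did not overlap for 11 of 65 in wild types, where 15% of all probe sets did not, and for 12 of 65 in mutants, where 13.2% did not. By representing probe set 2 of 33 were called in wild types and 3 of 33 in mutants, against 6.9% and 11.4% of all genes. When the probe sets of a gene were averaged instead, 1 of 33 was called in wild types and 0 in mutants. The members called were Btg2 in both genotypes, Cdkn1a and Trp53inp1 in wild types, and Mdm2, Aen and Sesn2 in mutants. Of the 33 representing probe sets, 22 lay below 0 in wild types with a median of -0.05 and 26 in mutants with a median of -0.09, where all genes had medians of 0.00 and -0.01. The wild type median was -0.033 without BALB/cCrl wild type 1, -0.030 without FVB/N wild type 1 and -0.035 without FVB/N wild type 4, and the mutant median was -0.055 without BALB/cCrl mutant 2. Without FVB/N mutants 3 and 4 the median in mutants was -0.13 and 6 probe sets were called. Some markers of other tissues were called between strains. Of 5 measured primitive erythroid markers, 4 were called higher in BALB/cCrl mutants, with sums of 15.99 to 16.14 against 15.45 to 15.90 in FVB/N mutants. In wild types these sums were 15.84 to 16.17 and 15.52 to 16.09, with 0 called, while 2 of 3 heart markers were called higher and 1 of 3 paraxial mesoderm markers lower in BALB/cCrl. The heart sums were 13.53 to 13.91 against 13.04 to 13.60, and the paraxial sums 11.00 to 11.35 against 11.34 to 11.98. Of 6 decidua and trophoblast markers, 6 lay above 0 in wild types (median 0.54) and 3 in mutants (0.32). Only 2 of these 6 were above the bound set by the Y-linked genes. Of 9 visceral endoderm markers, 3 lay above 0 in wild types (-0.12) and 7 in mutants (0.14). Of 4 neural markers, 2 lay above 0 in wild types (-0.01) and 3 in mutants (0.03). In these lists 0 were called. The part of the markers in the strain differences was not tested.

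**Figure D3:**
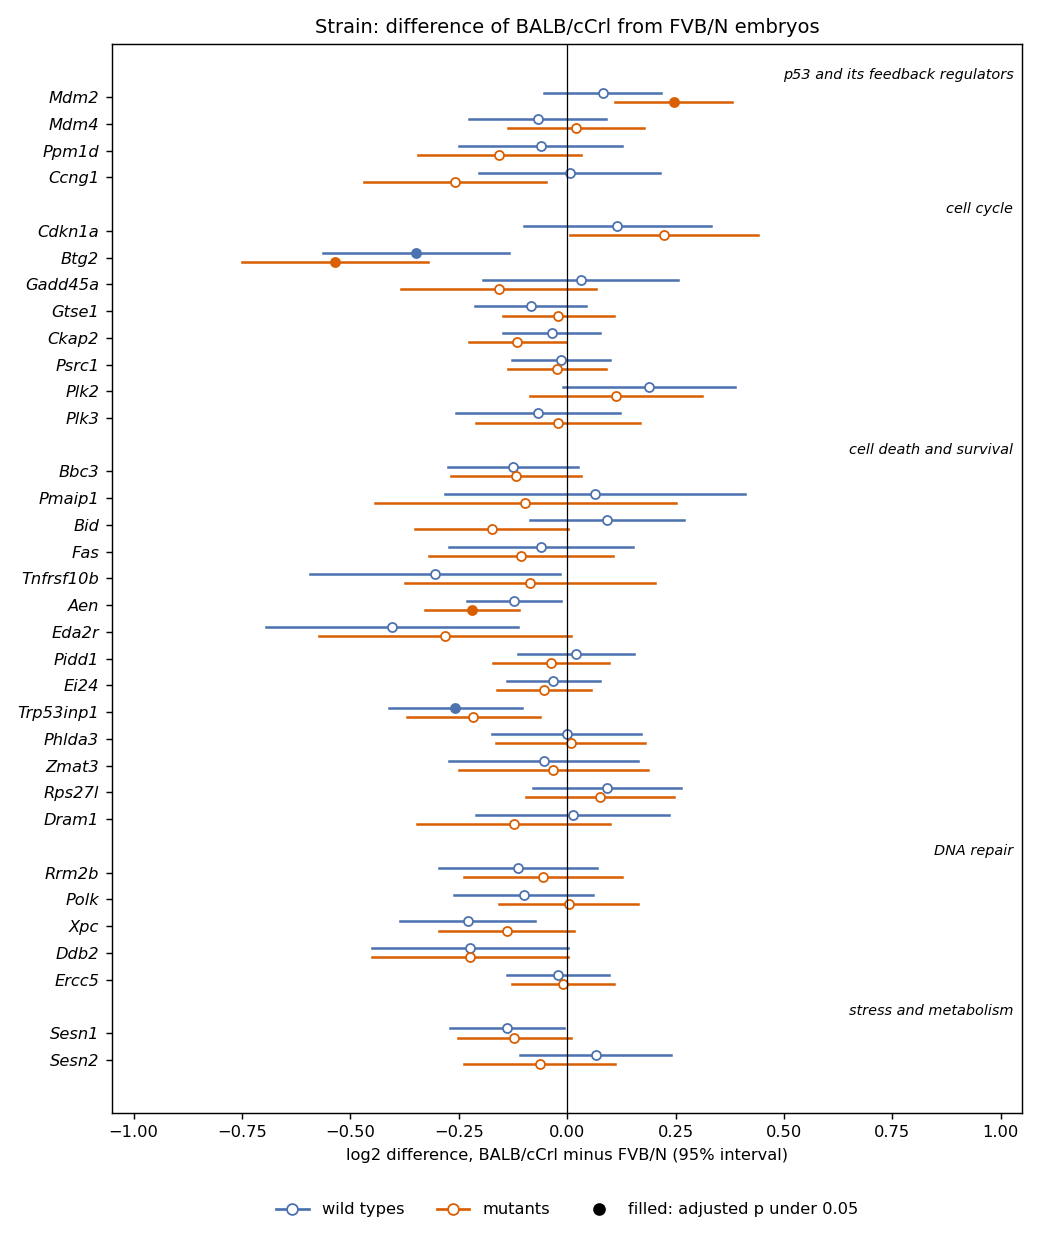
Difference between BALB/cCrl and FVB/N embryos of the same genotype (x axis, log2 units, with 95% intervals) for the 33 measured p53 target genes by role (y axis), in wild types (blue) and mutants (orange). Filled points have an adjusted p under 0.05: Btg2 at -0.35 and -0.54, Trp53inp1 at -0.26 in wild types, and Mdm2 at 0.25 and Aen at -0.22 in mutants.

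Btg2, an antiproliferative gene that is also known as a marker of neural progenitors about to make neurons, was lower in BALB/cCrl. Its probe set 1416250_at (gene at chr1:134074865-134079155) read 8.46, 8.38, 8.63 and 8.21 in wild types of BALB/cCrl and 8.83, 8.67, 8.72 and 8.84 in those of FVB/N. It read 8.47, 8.30, 8.23 and 8.01 in BALB/cCrl mutants and 8.89, 8.82, 8.90 and 8.53 in FVB/N mutants. The strains did not overlap in either genotype. Btg2 was 1.27-fold lower in BALB/cCrl wild types (-0.35 ± 0.10, limma adjusted p = 0.046) and 1.45-fold lower in BALB/cCrl mutants (-0.54 ± 0.10, limma adjusted p = 0.0014). In wild types the call was lost when any 1 of 7 of the 8 embryos was left out (limma adjusted p of 0.061 to 0.16). The other Btg2 probe set, 1448272_at, ran the other way, with differences of 0.07 ± 0.08 (limma adjusted p = 0.72) and 0.12 ± 0.08 (limma adjusted p = 0.39), so the strain difference rests on 1 probe set.

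The second Cdkn1a probe set, whose values are given above, was 1.31-fold higher in BALB/cCrl wild types than in FVB/N wild types (0.39 ± 0.09, limma adjusted p = 0.0073). In the authors' gcRMA values of these arrays the difference was 0.18 (limma adjusted p = 0.71). In mutants its difference was 0.24 ± 0.09 (limma adjusted p = 0.092), and the groups again did not overlap. The representing Cdkn1a probe set had differences of 0.12 ± 0.10 in wild types (limma adjusted p = 0.62) and 0.22 ± 0.10 in mutants (limma adjusted p = 0.20).

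Trp53inp1, a stress protein that helps p53 to start apoptosis, read 9.21, 8.98, 9.32 and 8.94 (1416926_at) in wild types of BALB/cCrl and 9.36, 9.40, 9.35 and 9.37 in those of FVB/N. It read 8.97, 9.03, 9.09 and 9.11 in BALB/cCrl mutants and 9.33, 9.28, 9.17 and 9.30 in FVB/N mutants. BALB/cCrl embryos lay below FVB/N embryos in both genotypes. It was 1.20-fold lower in BALB/cCrl wild types (-0.26 ± 0.07, limma adjusted p = 0.037), and the difference in mutants was -0.22 ± 0.07 (limma adjusted p = 0.066). The wild type call was lost when any 1 of 6 embryos was left out (limma adjusted p of 0.071 to 0.14). The other, dimmer Trp53inp1 probe set, 1416927_at, ran the other way, and its groups overlapped. It differed by 0.02 ± 0.12 in wild types (limma adjusted p = 0.94) and by 0.08 ± 0.12 in mutants (limma adjusted p = 0.76).

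Mdm2 was 1.19-fold higher in BALB/cCrl mutants than in FVB/N mutants by its representing probe set (0.25 ± 0.06, limma adjusted p = 0.017), and the values given above did not overlap between these groups. The call was lost without BALB/cCrl mutant 1 (limma adjusted p = 0.079) and without FVB/N mutant 3 (limma adjusted p = 0.058). It was also lost without FVB/N mutants 3 and 4 together (limma adjusted p = 0.054). In wild types the difference was 0.08 ± 0.06 (limma adjusted p = 0.56). The second Mdm2 probe set had differences of 0.18 ± 0.06 in wild types (limma adjusted p = 0.080) and 0.17 ± 0.06 in mutants (limma adjusted p = 0.081).

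Aen, a nuclease that takes part in the breakdown of DNA during apoptosis, read 10.51, 10.44, 10.59 and 10.60 (1423957_at) in BALB/cCrl mutants and 10.68, 10.82, 10.68 and 10.85 in FVB/N mutants. It read 10.66, 10.64, 10.58 and 10.63 in wild types of BALB/cCrl and 10.81, 10.80, 10.73 and 10.67 in those of FVB/N. The strains did not overlap in either genotype. Aen was 1.16-fold lower in BALB/cCrl mutants (-0.22 ± 0.05, limma adjusted p = 0.0085), and the difference in wild types was -0.12 ± 0.05 (limma adjusted p = 0.20). The 3 other Aen probe sets also had lower means in BALB/cCrl mutants, at 9.27 against 9.44, 7.88 against 7.97 and 7.35 against 7.55, and were not called.

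The second Sesn2 probe set read 7.49, 7.40, 7.52 and 7.62 in BALB/cCrl mutants, all above the FVB/N mutants given above, and was 1.26-fold higher (0.34 ± 0.09, limma adjusted p = 0.012). In wild types it differed by -0.04 ± 0.09 (limma adjusted p = 0.88), and the representing Sesn2 probe set by -0.06 ± 0.08 in mutants (limma adjusted p = 0.73). Eda2r had a larger wild type difference than any called member, -0.40 ± 0.14, but a wider error, and was not called (limma adjusted p = 0.097). Tnfrsf10b differed by -0.30 ± 0.14 in wild types (limma adjusted p = 0.24). In mutants Eda2r differed by -0.28 ± 0.14 (limma adjusted p = 0.24) and Ccng1 by -0.26 ± 0.10 (limma adjusted p = 0.11).

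Other genes of the pathway were called between strains but not between genotypes. Of 23 listed genes upstream of p53 or acting on it, 22 were measured, and of 26 further effectors, 20 were measured. limma called 0 of these 42 in either trap contrast and 0 in the interaction, where it called 0.044% of all genes in BALB/cCrl, 0.511% in FVB/N and 0.066% in the interaction. At an unadjusted p under 0.05 there were 5 upstream genes and 4 effectors in the BALB/cCrl trap contrast, 2 and 1 in that of FVB/N, and 2 and 2 in the interaction, against 9.72%, 11% and 6.95% of all genes. Perp, a desmosomal protein of the apoptotic programme, had the largest trap difference among them, -0.58 ± 0.10 in BALB/cCrl (limma adjusted p = 0.067). Between wild types 2 upstream genes and 2 effectors of the 42 were called, against 6.9% of all genes. Casp9, the initiator caspase of the mitochondrial pathway, averaged 8.77 ± 0.16 (SD) in wild types of BALB/cCrl and 8.02 ± 0.10 in those of FVB/N (0.75 ± 0.08 SE, limma adjusted p = 2.3e-06). Between mutants it averaged 8.78 ± 0.04 and 7.86 ± 0.13 (0.92 ± 0.08 SE, limma adjusted p = 1.3e-07), a larger strain difference than that of any of the 33 members. Sfn, which encodes the cell cycle protein 14-3-3 sigma, was higher in BALB/cCrl wild types by 0.41 ± 0.09 (limma adjusted p = 0.0044). Between mutants 3 upstream genes and 5 effectors of the 42 were called, against 11.4% of all genes, among them Perp at -0.44 ± 0.10 (limma adjusted p = 0.0084), Tigar at -0.32 ± 0.08 (limma adjusted p = 0.0086) and Sco2 at -0.27 ± 0.07 (limma adjusted p = 0.011).

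The authors' deposited table of p-values per probe set held folds equal to those found here, so it is not an independent check. For Mdm2 (1423605_a_at) both gave 1.14-fold between BALB/cCrl wild types and mutants. In the authors' deposited table, 8 of the 65 member probe sets had a p under 0.05 between BALB/cCrl wild types and mutants, where 8.7% of all probe sets did, and 8 between FVB/N wild types and mutants, where 10.1% did. Between strains it gave 15 in wild types, where 20.2% of all did, and 12 in mutants, where 17.7% did. The limma fit had 11 and 19 at an unadjusted p under 0.05, so the strain counts were not alike.

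Single embryos also differed across the set. FVB/N mutant 2 was the highest of its group for 14 of 33 genes (42.4%), compared with 20.6% of all genes, and had a median deviation from its group mean of 0.06. FVB/N mutant 3 was the lowest of its group for 13 genes (39.4%), compared with 28.1% of all genes, with a median deviation of -0.07. BALB/cCrl mutant 2 was the lowest of its group for 16 genes (48.5%), compared with 33.1% of all genes. These deviations were of the size of the group medians given above.

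**Figure D4:**
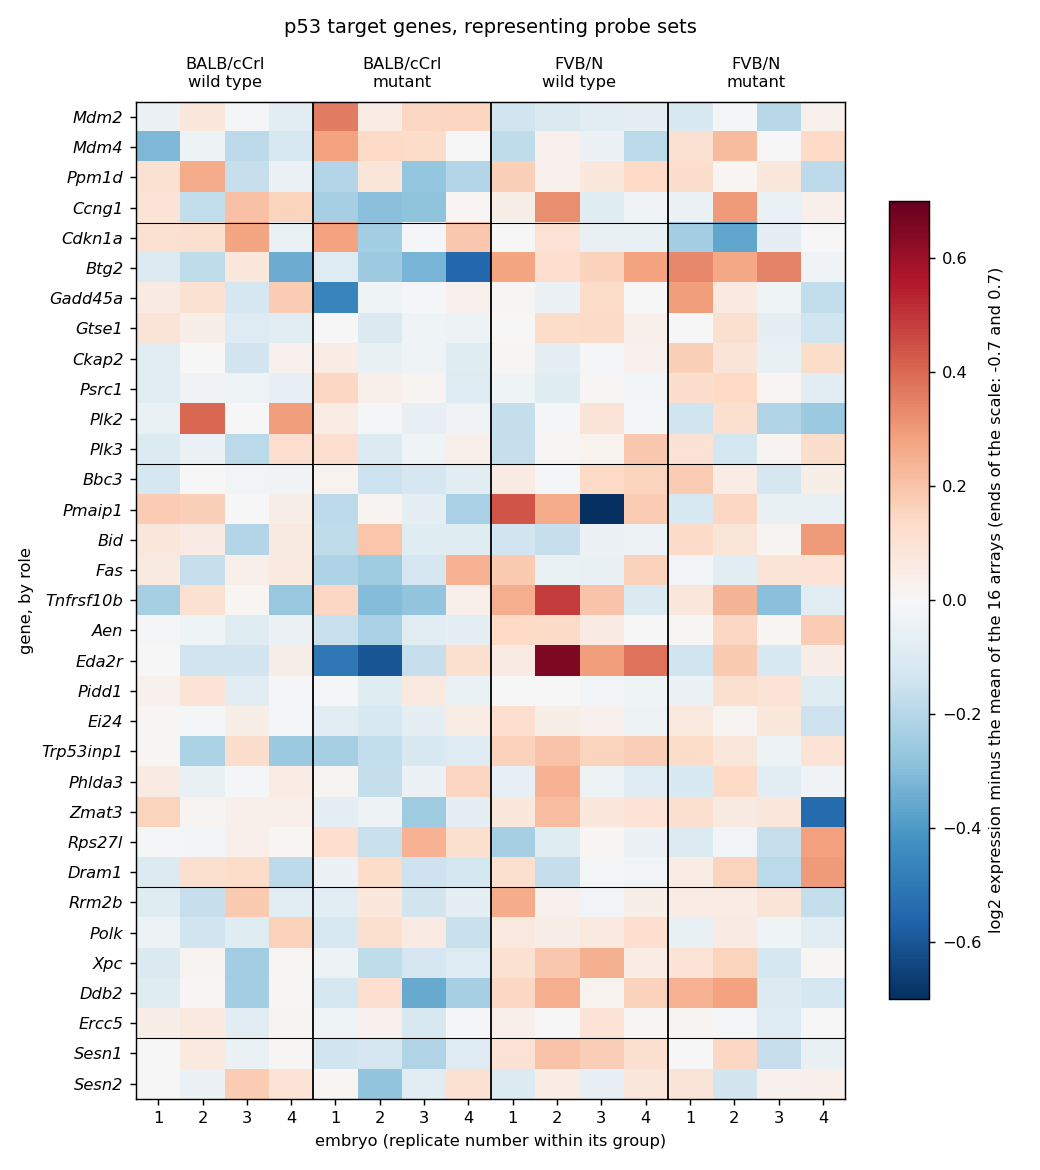
Log2 expression of the 33 measured p53 target genes (rows, by role) in the 16 embryos (columns, 4 per group), as the difference from each gene's mean over the 16 arrays (colour, from -0.7 to 0.7). No group stands out as a block across the set, and Btg2 has lower means in both BALB/cCrl groups than in both FVB/N groups.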

How the data were processed

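Total RNA of 16 embryos was hybridised to Affymetrix mouse arrays. The authors deposited log2 expression values normalised over all 16 arrays; RMA and GCRMA are named in the submitters' processing notes, with neither version nor role given. The authors also deposited gcRMA log2 values for 3 pairs of groups, used as an alternative, and a table with a score (signed linear fold of group means) and p-values of a test per probe set, as the file headers name them. The platform annotation gave 1 gene symbol to 34945 of the 45037 probe sets, several to 932 and none to 9160.

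All 16 arrays were fitted in limma 3.58.1 (R 4.3.3) with a mean for each group, an intensity trend and no other term. Two-sided p-values received the Benjamini-Hochberg adjustment over all probe sets, and the fit was tested on simulated data. Arrays have no read depth, so precision rests on how many there are, 4 in each group. Scan dates are unknown here. The members and lists were chosen with earlier results of these data known. Genes described in full were Mdm2, Cdkn1a and Ccng1. Per contrast, every member with a called probe set and the 3 largest differences among representing probe sets were also described. Mdm4's, Sesn1's, Sesn2's, Bid's, Trp53inp1's and Cdkn1a's other probe sets, Ppm1d, Bbc3, Pmaip1, Sesn1 and Perp were added after their values were seen. Alternatives changed the normalisation, trend, weights, dim probe sets, arrays fitted and probe set choice. Promoter windows and coordinates came from RefSeq (GRCm38.p6).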

Additional observations from a re-analysis of the deposited data

Results flagged for a closer look

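In 8 of 132 sets of 4 embryos (33 genes in 4 groups) 1 embryo lay apart from the other 3, by a gap beyond Dixon's critical value. Chance alone reaches such a gap in about 1 set of 20, and the flagged share was close to that. The sets are therefore listed as single readings and not as a result about these genes. Zmat3, an RNA-binding target of p53, accounted for 3 of the 8. It was at 9.69 in BALB/cCrl wild type 1 with the others at 9.55 to 9.57, at 9.28 in BALB/cCrl mutant 3 with the others at 9.46 to 9.49, and at 8.99 in FVB/N mutant 4 with the others at 9.59 to 9.64. FVB/N mutant 4 was also apart for Rrm2b, a ribonucleotide reductase subunit, at 7.48 with the others at 7.70 to 7.74. Gadd45a was at 7.61 in BALB/cCrl mutant 1, below the others at 8.04 to 8.11. Bid was at 8.43 in BALB/cCrl wild type 3, below the others at 8.69 to 8.71. Fas was at 4.51 in BALB/cCrl wild type 2, below the others at 4.71 to 4.75. Its representing probe set was the dimmest of the members (mean 4.68), near the bound of 4.23 set by the Y-linked genes. Phlda3 was at 8.74 in FVB/N wild type 2, above the others at 8.41 to 8.46.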

How the results depend on the processing

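The count of 0 called members held under all alternatives run for the trap in BALB/cCrl (17), the trap in FVB/N (17) and the interaction (24). Between wild types, 3 member probe sets were called; the count was 1 with no intensity trend and 5 with array weights, and leaving out 1 embryo gave 1 to 3 (1 without BALB/cCrl wild type 2 or 4 or FVB/N wild type 2, 3 or 4). Between mutants, 4 were called; the count was 1 with only the arrays of the compared groups, and leaving out 1 embryo gave 4 to 6. Counted by gene, 2 were called in wild types (0 to 3 over 18 alternatives) and 3 in mutants (0 to 5), with 1 and 0 when the probe sets of a gene were averaged. Over all alternatives, the probe set of Btg2 kept its call in 7 of 17 in wild types (limma adjusted p from 0.0093 to 0.44) and in 17 of 17 in mutants, Trp53inp1 in 6 of 17 (0.005 to 0.39), Cdkn1a in 16 of 17, Mdm2 in 13 of 17 (0.008 to 0.087), and Aen and Sesn2 in 16 of 17 each. None of these probe sets reversed its direction, and the cause of the lost calls was not tested. In the authors' gcRMA values of the wild types, the limma adjusted p was 0.44 for Btg2, 0.39 for Trp53inp1 and 0.71 for Cdkn1a. All 3 wild type calls were thus lost there, while 2 other member probe sets were called. With quantile normalization 2 member probe sets were called in wild types, and all of these were higher in BALB/cCrl. The median interaction of the members ran from -0.068 to 0.02 over its alternatives. Without FVB/N mutants 3 and 4, chosen after seeing the data, the median interaction of the members was -0.07 instead of 0.00. Replicate numbers were not taken as pairs: same-numbered embryos correlated at -0.145 to 0.169 in their deviations. The best match was the same number for 3 embryos between the wild type groups and for 2 between the mutant groups. It was the same number for 1 between the FVB/N groups and for 0 between the BALB/cCrl groups. With the replicate number as a block, Trp53inp1 lost its call in wild types (limma adjusted p = 0.060), which left 2 called there, and the counts of the other contrasts did not change.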
